A study of Mus musculus with 2 samples.

Results

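The genes described here were 7 listed potassium channel genes, out of 24071 gene rows in the data. They were Kcnj2, Kcnj8, Kcnj10, Kcnj13 and Kcnj16, which encode pore subunits of inward rectifier potassium channels, and Abcc8 and Abcc9, which encode the sulfonylurea receptors SUR1 and SUR2 of ATP-sensitive potassium (KATP) channels. They were chosen by name, and each had at least 1 count in both libraries. Their levels were compared across pericytes, smooth muscle, segments of the endothelium and ependymal cells of the mouse spinal cord.

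Inward rectifier channels pass potassium ions more readily into the cell than out of it and hold the membrane potential near the potassium equilibrium potential. A KATP channel is built of pore subunits, Kir6.1 (Kcnj8) or Kir6.2 (Kcnj11), together with sulfonylurea receptors, and it opens when the energy state of the cell falls. In vessels these channels are known for control of contractile tone, Kir2.1 (Kcnj2) is known as a sensor of extracellular potassium, and Kir4.1 (Kcnj10) and Kir5.1 (Kcnj16) form joint channels for potassium uptake and transport in glia and epithelia.

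The cells came from the spinal cords of adult C57BL/6j mice of 10 to 12 weeks. All were Clec9a Cre/Cre and Rosa26 LSL-tdTomato/LSL-tdTomato, so both Clec9a copies carried Cre, and a cell with present or past activity of Clec9a (the gene for DNGR-1), or a descendant of one, makes tdTomato. After myelin removal, live CD45- CD133+ cells were sorted into a CD133+ DNGR-1 traced library (tdTomato+) and a CD133+ non-traced library (tdTomato-). Each group was 1 library, so no test between groups was possible, and the number of animals pooled was not given in the sources used here. The non-traced library held 25411 cells with 233318692 unique molecular identifiers (UMIs, tags of single captured RNA molecules) and the traced library 4825 cells with 46530507 UMIs. The libraries shared 42 cell barcodes. Levels are given in CPM, the UMIs of a gene for every 1000000 UMIs summed over a cell group, with exact 95% Poisson intervals in parentheses, and shares of cells carry exact 95% Clopper-Pearson intervals. Both cover counting error only.

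Cell groups were rebuilt from marker genes that include no potassium channel. In the non-traced library, 153 cells were pericyte-like and 62 were smooth muscle-like with few endothelial transcripts, and 3457, 15052 and 2548 cells were arterial, capillary and venous endothelial-like. Ependymal-like cells numbered 1154 in the non-traced and 4724 in the traced library. The groups were named by lists that hold the following markers, so these levels describe the groups and do not test their names. Pdgfrb, of the pericyte PDGF receptor, stood at 1315 CPM in pericyte-like cells. Myh11, of smooth muscle myosin, was at 4133 CPM in smooth muscle-like cells. Cldn5, of the endothelial tight junction, was at 7748 CPM in capillary endothelial-like cells. Foxj1, the ciliogenesis factor, was at 475 CPM in traced ependymal-like cells. RNA of other cells was present in each group of the non-traced library. The 8 endothelial markers summed to 0.248% of UMIs in pericyte-like and 0.0547% in smooth muscle-like cells, against 2.08% in capillary endothelial-like cells, and in ependymal-like cells to 0.0347% (non-traced) and 0.00252% (traced). All sorted cells had passed a CD133 gate, and the numbers of cells per group reflect that gate as well as the tissue.

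In the genome (mm10, GRCm38, GENCODE M21 annotation), 6 of the 7 genes lie beside another gene of a potassium channel. Kcnj8 (chr6:142564837-142571614, minus strand) and Abcc9 (chr6:142587862-142702315, minus strand) are separated by 16.2 kb with 0 protein-coding genes between them. Kcnj16 (chr11:110968033-111027968) and Kcnj2 (chr11:111066164-111076821) follow each other on the plus strand with a gap of 38.2 kb. Abcc8 (chr7:46104523-46180033, minus strand) lies 3.76 kb from Kcnj11. Kcnj10 (chr1:172341210-172374085, plus strand) is 11.9 kb from Kcnj9. Kcnj13 (chr1:87386363-87394729, minus strand) lies inside the span of Gigyf2, which is on the plus strand. The use of strand in counting is not given in the sources used here, and Gigyf2 itself stood between 39.1 and 54.0 CPM in the 7 named groups, highest in traced ependymal-like cells. Kcnj13 values are therefore uncertain.

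The promoters of the pericyte pair, Kcnj8 and Abcc9, and of the ependymal genes Kcnj10 and Kcnj13 are shown because each pair shared a cell type. Each is the RefSeq stretch of GRCm38.p6 from 250 bases before to 50 after the start, 5′ to 3′ on the gene's strand. Capitals mark matches, on either strand, to the TATA box (TATAAA), the GC box (GGGCGG), the TEAD motif (CATTCC), the RBPJ motif (TGGGAA), the forkhead core (TGTTTA), the RFX motif of ciliary genes (GTTGCC) or the CArG box of smooth muscle genes.
Kcnj8 (chr6:142571565-142571864, minus strand): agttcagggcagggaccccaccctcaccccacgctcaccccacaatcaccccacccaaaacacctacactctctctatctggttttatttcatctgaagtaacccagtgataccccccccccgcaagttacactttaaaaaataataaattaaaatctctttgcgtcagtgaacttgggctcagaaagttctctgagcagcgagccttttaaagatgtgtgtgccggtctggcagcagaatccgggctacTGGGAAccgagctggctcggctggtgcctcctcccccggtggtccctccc
Abcc9 (chr6:142702225-142702524, minus strand): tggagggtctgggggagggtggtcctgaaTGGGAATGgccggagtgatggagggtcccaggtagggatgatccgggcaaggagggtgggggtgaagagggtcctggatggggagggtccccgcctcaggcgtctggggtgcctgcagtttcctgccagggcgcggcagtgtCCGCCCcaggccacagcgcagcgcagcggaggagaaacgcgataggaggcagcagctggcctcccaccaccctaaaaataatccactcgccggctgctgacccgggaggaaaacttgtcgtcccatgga
Kcnj10 (chr1:172340960-172341259, plus strand): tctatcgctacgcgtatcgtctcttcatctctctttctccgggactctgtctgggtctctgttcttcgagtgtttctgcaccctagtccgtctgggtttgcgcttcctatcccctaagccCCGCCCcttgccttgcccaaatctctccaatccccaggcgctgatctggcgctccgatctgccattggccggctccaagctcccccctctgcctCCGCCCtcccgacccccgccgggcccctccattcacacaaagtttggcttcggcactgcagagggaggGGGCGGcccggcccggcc
Kcnj13 (chr1:87394680-87394979, minus strand): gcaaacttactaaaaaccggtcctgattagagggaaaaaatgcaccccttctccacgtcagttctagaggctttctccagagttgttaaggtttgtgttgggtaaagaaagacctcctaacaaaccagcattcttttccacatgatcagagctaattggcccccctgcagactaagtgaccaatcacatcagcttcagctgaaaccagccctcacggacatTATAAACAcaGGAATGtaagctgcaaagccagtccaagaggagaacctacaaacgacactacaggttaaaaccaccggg

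The stretches of the pericyte pair both held TGGGAA, as did 25.6% of all 32851 promoters of this length, and neither held a CArG box, found in 1.63% of them. The TEAD match of Abcc9 overlaps its RBPJ match. The Kcnj10 stretch held 3 copies of GGGCGG (35.7% of promoters hold at least 1), while that of Kcnj13 held the TATA box (13.6%), a forkhead core that overlaps it (13.4%) and the TEAD motif (14.7%). These are matches of letters only. Kcnj16 has 4 listed starts, Kcnj2 has 1, and Abcc8 was not matched in the table.

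Kcnj8 and Abcc9 marked pericytes. Kcnj8, which encodes the KATP pore Kir6.1, had 952 UMIs in the 153 pericyte-like cells, 1512 CPM (1418–1611). It stood at 4.26 CPM (3.90–4.65) in capillary, 3.55 CPM (2.91–4.28) in venous and 3.05 CPM (2.49–3.72) in arterial endothelial-like cells. Smooth muscle-like cells held 1 Kcnj8 UMI, 1.95 CPM (0.0495–10.9), and ependymal-like cells of this library 12 UMIs, 1.40 CPM (0.722–2.44). The pericyte level was thus 355 times that of capillary endothelial-like cells (interval 318–395). Below the pericytes, neighbours in this order had intervals of their ratio that included 1, except for traced ependymal-like cells, which came last with 0 UMIs among 45468086. Groups further apart could differ, as arterial endothelial-like cells stood at 0.716 times the capillary level (0.572–0.889).

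Abcc9, which encodes the receptor subunit SUR2, was likewise highest in pericytes. It had 890 UMIs in pericyte-like cells, 1414 CPM (1322–1509.7), and then 9.20 CPM (8.67–9.75) in capillary, 6.45 CPM (5.60–7.38) in arterial and 5.53 CPM (4.73–6.43) in venous endothelial-like cells. The level in pericytes was 154 times that in capillary endothelial-like cells (141–168). Capillary exceeded arterial endothelial-like cells by 1.43 times (1.23–1.66), whereas arterial, smooth muscle-like (3 UMIs, 5.86 CPM, 1.21–17.1) and venous endothelial-like cells could not be ordered at this depth. Non-traced ependymal-like cells stood at 1.51 CPM (0.805–2.59) and the traced ones at 0 UMIs.

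**Figure D1:**
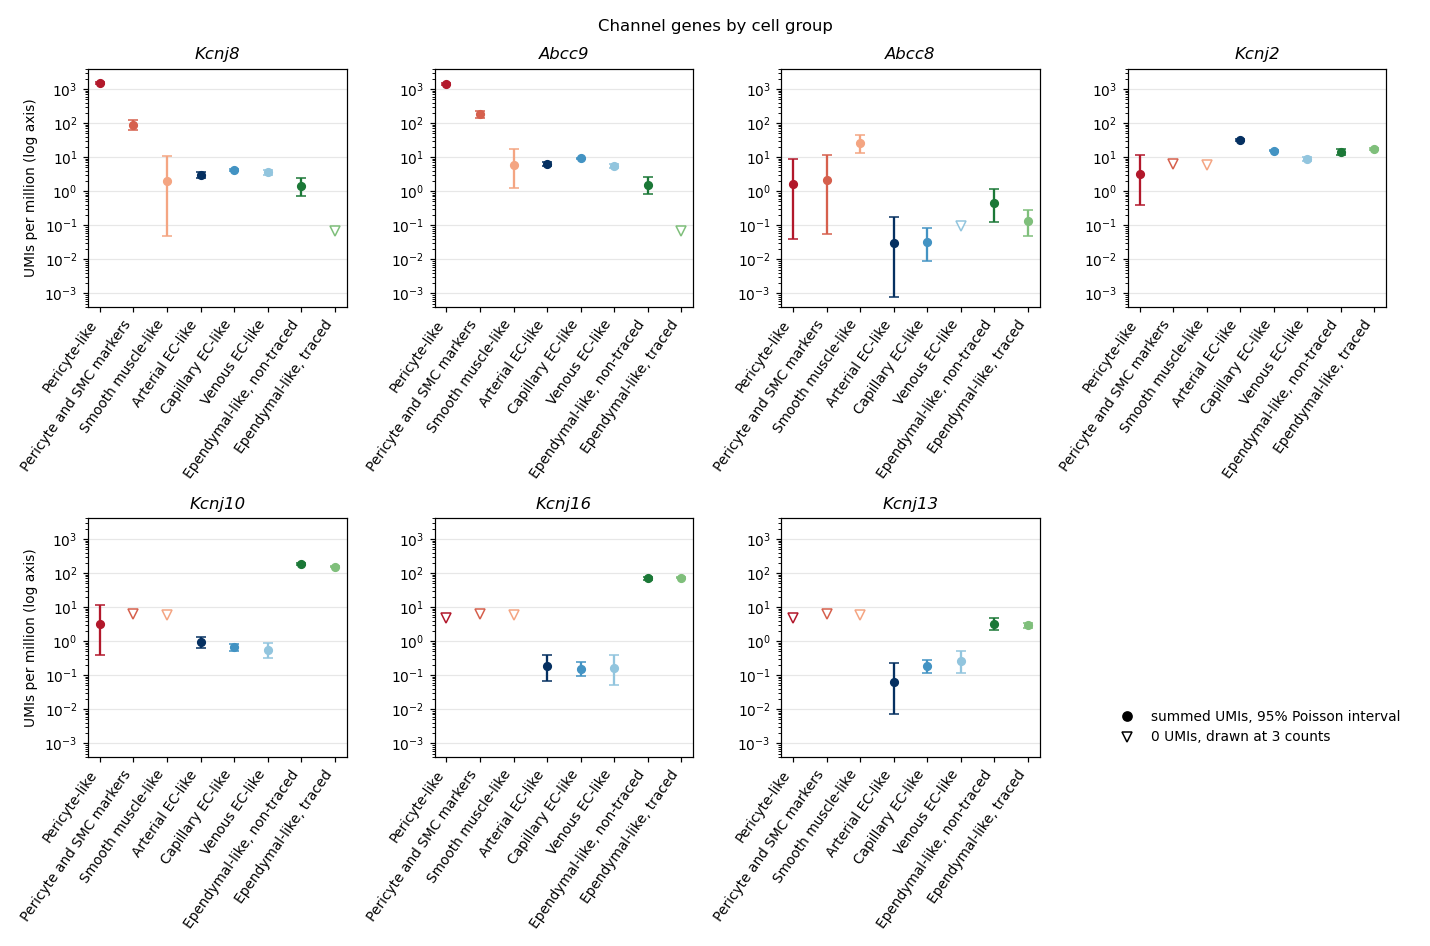
Levels of the 7 channel genes in CPM (log axis) in 8 cell groups; points are summed counts with 95% Poisson intervals, and open triangles mark groups with 0 UMIs, drawn at the level of 3 counts. Kcnj8 and Abcc9 stood at 1512 and 1414 CPM in pericyte-like cells, Abcc8 was highest in smooth muscle-like cells, Kcnj2 in arterial endothelial-like cells, and Kcnj10, Kcnj16 and Kcnj13 in ependymal-like cells.

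Most pericyte-like cells held both transcripts. At full depth, Kcnj8 was found in 145 of 153 cells (94.8%, 90.0–97.7) and Abcc9 in 141 (92.2%, 86.7–95.9). After thinning every cell to 1000 UMIs, the shares were 71.2% (63.4–78.3) for Kcnj8 and 60.1% (51.9–67.9) for Abcc9. At that depth ependymal-like cells of the same library, which should lack both, had Kcnj8 in 0.260% and Abcc9 in 0.260% of cells. Median depths were 4052 UMIs in pericyte-like and 7067.5 in these ependymal-like cells. Among the 109 thinned pericyte-like cells with a Kcnj8 UMI, 61.5% (51.7–70.6) also had Abcc9, and among the 44 without one, 56.8% (41.0–71.7) had it. These intervals overlapped, so no tie between detection of the pair was detectable within pericyte-like cells at this depth. Among pericyte-like cells with endothelial markers the shares were 45.8% (41.0–50.7) and 32.0% (28.9–35.3).

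The pericyte levels were as large in cells free of endothelial markers. The 13 pericyte-like cells with no UMI of Cldn5, Flt1, Pecam1 or Ly6c1 stood at 1933 CPM (1528–2412) for Kcnj8 and 1437 CPM (1091–1858) for Abcc9. A further 1258 non-traced cells had pericyte and endothelial markers together, with 1.51% of UMIs from the 8 endothelial markers and a median of 12806.5 UMIs per cell. They held Kcnj8 at 434 CPM (425–444) and Abcc9 at 465 CPM (456–476). Over their 7 sub-clusters Kcnj8 ran from 143 to 1064 CPM and Abcc9 from 160 to 989 CPM. Whether these barcodes were pairs of cells was not tested.

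Summed over cells, the pair stood at a middle level in the group with both sets of mural markers. Besides pericyte-like and smooth muscle-like cells, 67 cells carried markers of both, with Acta2, the smooth muscle actin gene, at 2389 CPM against 14.3 CPM in pericyte-like and 16340 CPM in smooth muscle-like cells. In these cells Kcnj8 stood at 90.0 CPM (64.9–122), and pericyte-like cells were 16.8 times higher (12.3–23.5). Abcc9 stood at 180.0 CPM (144–223) in them, and pericyte-like cells were 7.85 times higher (6.27–9.94). At full depth, a median of 5212 UMIs, Kcnj8 was found in 26 of the 67 cells (38.8%, 27.1–51.5). Abcc9 was found in 30 of them (44.8%, 32.6–57.4), against 94.8% and 92.2% of pericyte-like cells for the 2 genes. The middle level is thus that of the sum and need not hold for each cell. The step from this group to smooth muscle-like cells was 46.0-fold for Kcnj8 (7.82–1861, resting on 1 UMI) and 30.7-fold for Abcc9 (10.1–152, resting on 3 UMIs). Scrublet, which compares cells with simulated pairs, left all 67 uncalled as doublets. It also called none of the 153 pericyte-like and 62 smooth muscle-like cells, and 8.54% of this library against 20.3% expected. Whether the 67 were pairs of cells was not tested further. The 8 endothelial markers summed to 0.743% of UMIs in these cells, against 0.248% in pericyte-like and 0.0547% in smooth muscle-like cells, and their part in the levels was not tested.

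The balance of the pair was near 1 in pericyte-like cells and higher in some of the other groups. The ratio of Abcc9 to Kcnj8, in 3′ UMIs that are not scaled by transcript length, was 0.935 (0.852–1.02) in pericyte-like cells and 1.07 (1.04–1.11) in those with endothelial markers. It was 2.0 (1.37–2.97) in cells with pericyte and smooth muscle markers and 1.78 (1.09–2.96) in the 143 smooth muscle-like cells with endothelial markers. In capillary and arterial endothelial-like cells it was 2.16 (1.94–2.40) and 2.11 (1.66–2.70), and in venous endothelial-like cells 1.56 (1.22–2.0). In cells of these groups with no UMI of Pdgfrb, Vtn, Rgs5 or Acta2 it was 0.947 (0.677–1.33), 1.08 (0.470–2.49) and 1.14 (0.523–2.53), so that the endothelial excess of Abcc9 was not seen there. A group of 515 endothelial cells with few mural markers held both genes at a middle level in the sum over cells. Kcnj8 stood at 64.1 CPM (56.8–72.1) and Abcc9 at 132 CPM (121–143), with a ratio of 2.05 (1.78–2.38). At full depth 29.7% of these cells had Kcnj8 and 49.9% had Abcc9.

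**Figure D2:**
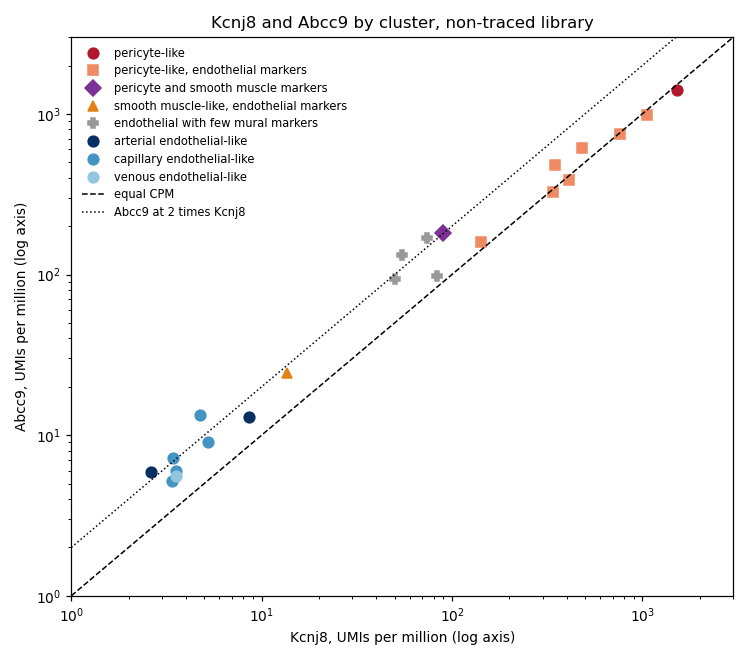
Kcnj8 (x axis) against Abcc9 (y axis), both in CPM on log axes, by cluster or sub-cluster of the non-traced library. Drawn are those of the mural and endothelial groups with more than 1 UMI of each gene. Ependymal-like, mixed, fibroblast-like and unnamed clusters are left out. The dashed line marks equal levels and the dotted line Abcc9 at 2 times Kcnj8. The pericyte-like point at 1512 and 1414 CPM lies near the dashed line and the endothelial clusters lie above it; smooth muscle-like cells, with 1 Kcnj8 UMI, are not drawn.

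In endothelial-like cells both values were lower where no UMI of Pdgfrb, Vtn, Rgs5 or Acta2 was found. The selected cells were also shallower, with medians of 5861, 6851.5 and 8750 UMIs in capillary, arterial and venous cells against 6440, 7761 and 10980. Of the 15052 capillary endothelial-like cells, 5929 had no UMI of Pdgfrb, Vtn, Rgs5 or Acta2, and in these Kcnj8 stood at 1.90 CPM (1.5–2.38) and Abcc9 at 1.80 CPM (1.41–2.27). The same selection left Kcnj8 at 1.07 CPM (0.572–1.84) and Abcc9 at 1.16 CPM (0.632–1.94) in arterial, and at 1.36 CPM (0.741–2.27) and 1.55 CPM (0.885–2.52) in venous endothelial-like cells. These values overlapped those of ependymal-like cells of the same library. The 9 pericyte markers summed to 0.0626% of UMIs in all capillary and 0.0571% in all arterial endothelial-like cells, and all 9 reached 1 CPM in both. The part of mural RNA in the endothelial values was not tested.

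Smooth muscle-like cells with few endothelial markers carried the other KATP pair at low level. Abcc8, which encodes SUR1, the sulfonylurea receptor best known from pancreatic beta cells and neurons, had 13 UMIs in 11 of the 62 smooth muscle-like cells, 25.4 CPM (13.5–43.5). Pericyte-like cells held 1 UMI, 1.59 CPM (0.0402–8.85), so that smooth muscle-like cells were 16.0 times higher (2.40–680.0). The level was 0.0328 CPM (0.00894–0.0840) in capillary and 0.0305 CPM (0.000773–0.170) in arterial endothelial-like cells, and venous endothelial-like cells had 0 UMIs among 30729605. Below smooth muscle, neighbours in the order of levels could not be told apart. At 1000 UMIs Abcc8 was found in 2 of 62 cells, and at full depth in 17.7% (9.20–29.5). Pericyte-like cells had it in 0 cells at 1000 UMIs and in 0.654% at full depth, with a median of 4052 UMIs against 7607 in smooth muscle-like cells.

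The 143 smooth muscle-like cells with endothelial markers gave values from different barcodes. They held 20 Abcc8 UMIs in 19 cells, 10.1 CPM (6.17–15.6), against 0.387 CPM (0.156–0.798) in pericyte-like cells with endothelial markers, a ratio of 26.1 (10.6–73.0). Kcnj11, the neighbour of Abcc8 and gene of the pore Kir6.2, had 6 UMIs in the 62 smooth muscle-like cells, 11.7 CPM (4.30–25.5), and 14 UMIs in the 143 cells, 7.07 CPM (3.86–11.9). It had 0 UMIs in both pericyte-like groups and in arterial, capillary and venous endothelial-like cells. Ependymal-like cells held Kcnj11 at 0.931 CPM (8 UMIs) in the non-traced and 0.352 CPM in the traced library. Against the floor of 3 counts, the 143 cells were at least 42.6-fold higher than pericyte-like cells with endothelial markers, with an exact interval of the ratio that began at 30.3. For Kcnj8 the direction was the opposite, with pericyte-like cells 31.9 times higher (21.9–48.4) within these groups with endothelial markers. The 143 cells still held Kcnj8 at 13.6 CPM (8.98–19.8, 27 UMIs) and Abcc9 at 24.2 CPM (17.9–32.1, 48 UMIs). In these cells Kcnj8 and Abcc9 were thus not below Abcc8 and Kcnj11. In the 62 smooth muscle-like cells Kcnj8 (1 UMI) and Abcc9 (3 UMIs) had fewer UMIs than Abcc8 (13) and Kcnj11 (6). There the interval of Abcc9 overlapped those of Abcc8 and Kcnj11, and the interval of Kcnj8 overlapped that of Kcnj11. The part of RNA of other cells in these values was not tested.

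Kcnj12, which encodes the inward rectifier Kir2.2, was present in both mural types and scarcely outside them. It stood at 50.8 CPM (34.8–71.8) in pericyte-like and 66.5 CPM (46.0–92.9) in smooth muscle-like cells. Cells with pericyte and smooth muscle markers together held it at 60.0 CPM (39.9–86.7). The ratio of smooth muscle-like to pericyte-like cells was 1.31 (0.783–2.19). In the groups with endothelial markers, smooth muscle-like cells stood at 33.3 CPM and pericyte-like cells at 16.0 CPM. Their ratio was 2.08 (1.57–2.73), an interval that left out 1. Endothelial-like groups stood between 0.130 and 0.180 CPM, and both ependymal-like groups had 0 UMIs.

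**Figure D3:**
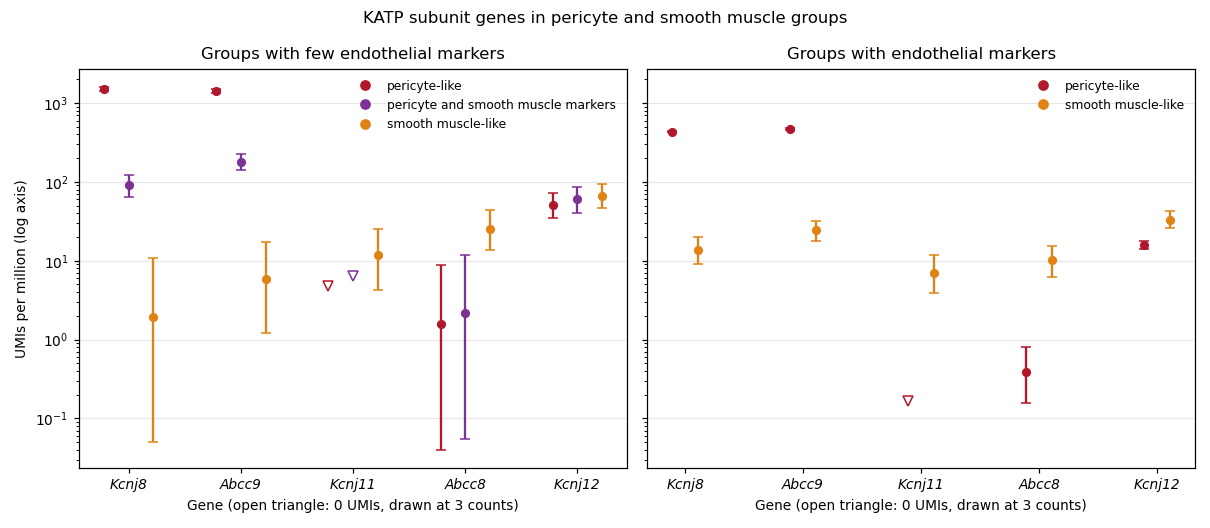
Levels of the KATP subunit genes and Kcnj12 in CPM (log axis) in mural groups with few endothelial markers (left) and with endothelial markers (right); points are summed counts with 95% Poisson intervals and open triangles mark 0 UMIs, drawn at 3 counts. Kcnj8 and Abcc9 were higher in the pericyte-like groups, Kcnj11 and Abcc8 in the smooth muscle-like groups, in both panels.

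Kcnj2, the gene of Kir2.1, followed the arteriovenous order of the endothelium. Arterial endothelial-like cells held 1070 UMIs, 32.7 CPM (30.8–34.7), capillary ones 15.7 CPM (15.0–16.4) and venous ones 8.72 CPM (7.71–9.83). Arterial exceeded capillary cells by 2.08 times (1.93–2.25) and venous cells by 3.75 times (3.27–4.30), and capillary exceeded venous cells by 1.80 times (1.58–2.05). All 3 intervals left out 1. In cells with no UMI of the mural markers the levels were 34.8 CPM (31.5–38.3), 14.8 CPM (13.6–16.1) and 6.78 CPM (5.28–8.56).

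The single clusters kept this order. The larger arterial endothelial-like cluster, of 3197 cells, stood at 33.2 CPM and the smaller, of 260 cells, at 26.5 CPM. Of the 5 capillary endothelial-like clusters of over 2000 cells, the highest Kcnj2 level was 18.9 CPM and the lowest 10.9 CPM, and the single venous cluster lay below all of these at 8.72 CPM. In the traced library, 20 endothelial-like cells with arterial markers held 16 Kcnj2 UMIs, 71.6 CPM (41.0–116), spread over 7 cells. They held 0 UMIs of Kcnj8 and 4 UMIs of Abcc9, all in 1 cell.

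**Figure D4:**
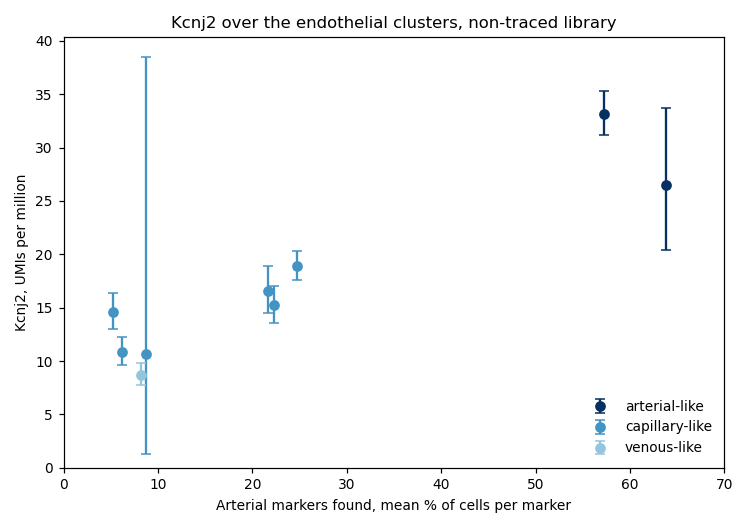
Kcnj2 in CPM against the mean share of cells with a UMI of each arterial marker, one point per endothelial-like cluster of the non-traced library with its 95% Poisson interval. The arterial-like clusters lie at 33.2 and 26.5 CPM and the venous-like cluster at 8.72 CPM; the wide interval belongs to a capillary-like cluster of 42 cells.

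Outside the endothelium Kcnj2 was an ependymal transcript as well. Ependymal-like cells held it at 17.9 CPM (16.7–19.2) in the traced and 14.1 CPM (11.7–16.8) in the non-traced library, and the latter did not differ from capillary endothelial-like cells beyond counting error (ratio of capillary to ependymal-like 1.11, 0.926–1.35). Mural cells were low, with 2 UMIs in pericyte-like cells, 3.18 CPM (0.385–11.5), and 0 in smooth muscle-like cells, where 3 counts would be 5.86 CPM. Arterial endothelial-like cells were at least 5.57-fold higher than smooth muscle-like cells on that floor, where the exact interval of the inverse ratio reached up to 0.221. After thinning, 2.86% (2.33–3.48) of arterial and 0.981% (0.636–1.45) of venous endothelial-like cells had a Kcnj2 UMI, against 23.1% and 9.14% at full depth, with median depths of 7761 and 10980.0 UMIs.

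Kcnj10 and Kcnj16, the partners of the Kir4.1/Kir5.1 channel, were ependymal. The traced ependymal-like cells held 7009 UMIs of Kcnj10, 154 CPM (151–158), and the non-traced ones 1565 UMIs, 182 CPM (173–191). The vascular groups ranged from 0 UMIs in smooth muscle-like cells to 3.18 CPM (2 UMIs) in pericyte-like cells, and traced ependymal-like cells were 232 times above capillary endothelial-like cells (186–293). The ependymal level of Kcnj16 was 72.3 CPM (69.8–74.8) in the traced library and 69.7 CPM (64.2–75.5) in the non-traced one. In the vascular groups it reached at most 0.183 CPM, with 0 UMIs in pericyte-like and smooth muscle-like cells, and traced ependymal-like cells were 464 times above capillary endothelial-like cells (297–772). Kcnj16 and its neighbour Kcnj2 thus differed in the endothelium and were both present in ependymal-like cells.

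At 1000 UMIs a cell, Kcnj10 was found in 13.5% (12.6–14.5) and Kcnj16 in 6.84% (6.13–7.59) of traced ependymal-like cells, and at full depth in 68.0% and 47.3%. In capillary endothelial-like cells, which should lack them, the thinned shares were 0.0598% and 0.0133%. Among thinned traced cells with Kcnj10, 7.98% (6.00–10.4) also had Kcnj16, against 6.66% (5.91–7.47) of those without. The non-traced cells gave 10.8% (6.73–16.2) against 6.50% (5.03–8.24), and in both libraries the intervals overlapped.

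The highest Kcnj10 level was found in another group. The 86 non-traced cells with astrocyte and endothelial markers held Kcnj10 at 552 CPM (503–603), 3.58 times the traced ependymal-like level (3.25–3.93), and Kcnj16 at 109.6 CPM (88.7–134), 1.52 times that level (1.22–1.86). The ratio of Kcnj10 to Kcnj16, again in UMIs not scaled by length, was 5.03 (4.03–6.34) there, 2.13 (2.05–2.22) for ependymal-like cells of the traced library and 2.61 (2.38–2.88) for those of the non-traced library. Cells with ependymal and endothelial markers together (720 cells) held Kcnj10 at 97.9 CPM (92.1–104) and Kcnj16 at 31.1 CPM (27.8–34.6).

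Kcnj13, which encodes Kir7.1, a channel of transporting epithelia such as choroid plexus, was rare and ependymal. Its ependymal level was 3.26 CPM (2.17–4.71) in the non-traced and 2.97 CPM (2.49–3.51) in the traced library, and it stood at 0.260 CPM (0.112–0.513), 0.180 CPM (0.113–0.273) and 0.0611 CPM (0.00740–0.221) in venous, capillary and arterial endothelial-like cells. Traced ependymal-like cells were 11.4 times above venous endothelial-like cells (5.63–27.0). At 1000 UMIs, 0.275% (0.147–0.470) of traced ependymal-like cells held a Kcnj13 UMI, and the full-depth share was 2.60%. In capillary endothelial-like cells these shares were 0.0266% and 0.146%, at a median of 6440 UMIs against 8564 in traced ependymal-like cells. Pericyte-like and smooth muscle-like cells had 0 UMIs, which at their size allows up to 4.77 and 5.86 CPM for 3 counts.

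Ependymal-like cells formed 9 clusters, of which only 1 held cells of both libraries in this class. Its leading genes included Ucma and Vtn, and it had 372 non-traced and 188 traced cells. In it, Kcnj13 had 1 UMI in the non-traced cells, 0.372 CPM (0.00942–2.07), and 0 UMIs in the traced cells. For all other ependymal-like cells the Kcnj13 level was 4.57 CPM (3.01–6.65) in the non-traced library, and 3.10 CPM (2.60–3.67) for those of the traced library. The ratio of the Ucma-led cluster to the others was 0.0814 (0.00199–0.494) in the non-traced library, and its upper bound was 0.626 in the traced library. Kcnj2 was at 11.9 CPM in both libraries' part of this cluster, 0.790 (0.510–1.2) and 0.656 (0.414–0.992) times the other ependymal-like cells. Kcnj10 was level with the rest, at ratios of 0.949 (0.850–1.06) and 1.05 (0.933–1.18), and so was Kcnj16 in the non-traced library at 1.08 (0.903–1.28), while in the traced library it was 1.19 (1.01–1.39). The clusters were made from these same cells, without the channel genes, so these values are a description.

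**Figure D5:**
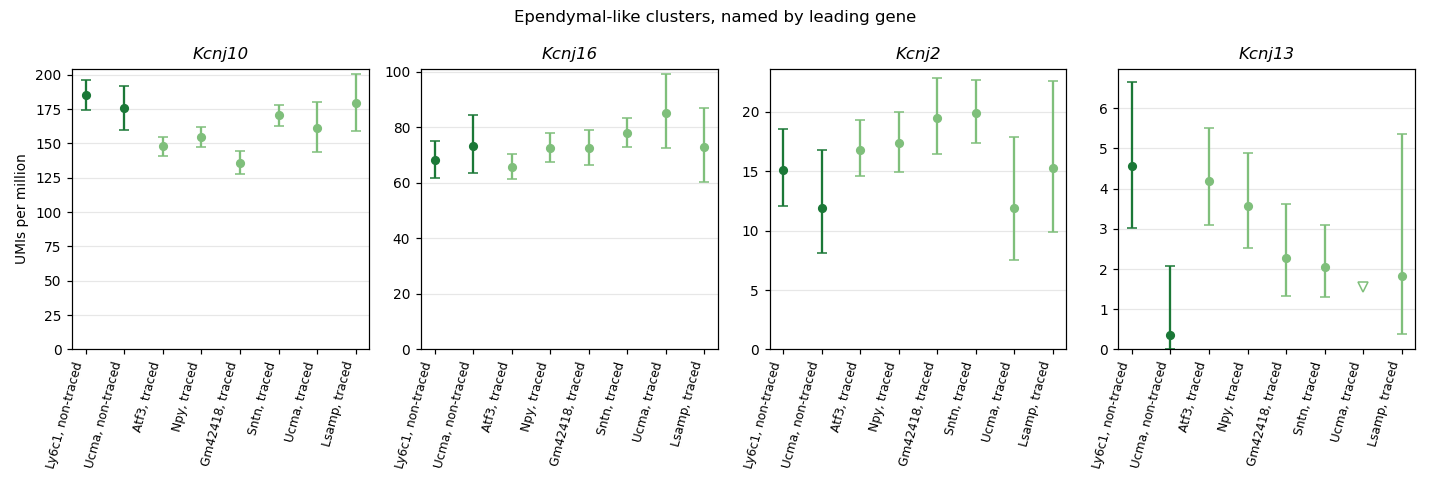
Kcnj10, Kcnj16, Kcnj2 and Kcnj13 in CPM by ependymal-like cluster of at least 100 cells, named by the leading gene and library; points are summed counts with 95% Poisson intervals, and the open triangle marks 0 UMIs, drawn at 3 counts. Kcnj10 and Kcnj16 were present in every cluster drawn, whereas Kcnj13 stood at 0.372 CPM and 0 UMIs in the Ucma-led cluster of the 2 libraries.

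Between traced and non-traced ependymal-like cells, Kcnj2, Kcnj10, Kcnj13 and Kcnj16 had enough UMIs to be compared. Of the 16280 genes with at least 20 UMIs over both, 0.897% were at least 2-fold higher and 2.41% at least 2-fold lower in the traced cells on the log2(CPM + 1) scale, which understates the change of low genes. Among the channel genes 4 reached 20 UMIs and 0 of these passed 2-fold in either direction. Their differences, traced minus non-traced, were 0.33 for Kcnj2, 0.05 for Kcnj16, -0.10 for Kcnj13 and -0.24 for Kcnj10, with a median of -0.02 against 0.00 over all genes tested. The corresponding ratios were 1.27 (1.05–1.55), 1.04 (0.95–1.13), 0.911 (0.603–1.42) and 0.846 (0.801–0.895). In the Ucma-led cluster, the ratio was 1.0 (0.560–1.77) for Kcnj2 and 0.919 (0.794–1.06) for Kcnj10, and outside it 1.21 (0.968–1.52) and 0.831 (0.780–0.887). These differences depended on how cells were chosen. With whole clusters named over both libraries they were 0.41 for Kcnj2, 0.25 for Kcnj16, 0.04 for Kcnj13 and -0.08 for Kcnj10. In cells with no endothelial marker UMI they were 0.61, 0.19, 0.46 and -0.13 in the same order, so the sign changed for Kcnj13 under both. These differences describe 2 libraries and not 2 conditions.

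The remaining channel genes were below 20 UMIs. For Abcc8, 6 UMIs were found among the traced and 4 among the non-traced cells. Kcnj8 and Abcc9 had 0 UMIs in traced cells and 12 and 13 in non-traced cells, so the latter were at least 21.2-fold and 22.9-fold higher against a floor of 3 counts, while the exact intervals of the ratios began at 14.7 and 16.1. Beside these values, the 9 pericyte markers summed to 112 CPM among the non-traced cells and to 12.5 CPM among the traced ones, with 7 and 2 of them at 1 CPM or more. The part of pericyte RNA in the difference was not tested.

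Other potassium channel genes were taken from lists fixed by name and counted where they reached 5 CPM. Of all 24071 gene rows, that level was reached by 41% in pericyte-like, 40.4% in smooth muscle-like, 40.5% in arterial, 39.9% in capillary and 40.0% in venous endothelial-like cells, and by 45.9% and 45.1% in non-traced and traced ependymal-like cells. In the 62 smooth muscle-like cells 3 counts are already 5.86 CPM, so 5 CPM is under 3 UMIs there. Of 10 other inward rectifier genes, 8 of them in the tables, 2 (Kcnj11 and Kcnj12) reached 5 CPM in smooth muscle-like, 1 (Kcnj12) in pericyte-like and 0 in the other named groups, and the next, Kcnj3 and Kcnj15, reached at most 1.59 and 1.17 CPM. Of 14 two-pore channel genes, 9 of them in the tables, 3 reached 5 CPM in each ependymal-like group, 1 each in pericyte-like and smooth muscle-like (Kcnk3) and in arterial endothelial-like cells (Kcnk6), and 0 in capillary and venous endothelial-like cells. With the non-traced ependymal level first and the traced level next, Kcnk2 stood at 123 and 108 CPM, Kcnk1 at 66.1 and 102 CPM and Kcnk7 at 30.1 and 20.2 CPM, and all 3 had 0 UMIs in both mural groups. Kcnk3, of the acid-sensitive channel TASK-1, was at 129 CPM (99.8–164) in smooth muscle-like and 15.9 CPM in pericyte-like cells.

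Of 13 voltage- and calcium-gated channel genes known from vessels, 7 reached 5 CPM in smooth muscle-like and 3 in pericyte-like cells, 2, 1 and 2 in arterial, capillary and venous endothelial-like cells, and 8 and 7 in non-traced and traced ependymal-like cells. With 13 genes, these counts are read as no more than a description. Kcna5, of a voltage-gated channel, stood at 139 CPM in smooth muscle-like and 1.59 CPM in pericyte-like cells. Kcnmb1, the smooth muscle subunit of the large-conductance calcium-activated channel, was at 131 CPM in smooth muscle-like and 73.1 CPM in pericyte-like cells. Kcnn3, of a small-conductance calcium-activated channel, had an ependymal level of 123 CPM (traced library) and 108 CPM (non-traced library) and at most 3.18 CPM in the vascular groups.

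Over the 7 named groups, the genes whose log2(CPM + 1) pattern was most like that of each channel gene were found among 9664 genes that reached 20 CPM. For Kcnj8 they were Cmc2, Ccdc102a and Gng2 (r from 0.992 to 0.993), of which Gng2, a G protein gamma subunit, stood at 224 CPM in pericyte-like and at most 2.17 CPM in other groups. The other 2 were not confined to pericytes. Cmc2 stood at 85.8 CPM in pericyte-like cells and from 23.2 to 33.6 CPM elsewhere. Ccdc102a stood at 54.0 CPM and from 21.6 to 27.9 CPM. Abcc9 was most like Cmc2, Mrps23 and Pbx2 (r from 0.982 to 0.995), again genes of all groups. Mrps23, for example, stood at 77.8 CPM in pericyte-like and 56.7 CPM in smooth muscle-like cells. The genes most like Kcnj16 included the cilia genes Ttc25 and Efcab1, and Kcnj10 was most like Arhgef4, Tceal8 and 1700016K19Rik (r from 0.999 to 1.0). Abcc8 was most like Mical2, Ldb3 and Slc8a2 (r from 0.998 to 0.999), with 97.7, 48.9 and 35.2 CPM in smooth muscle-like cells. Kcnj2 was most like Smarcd1, Arhgef28 and Snx10 (r from 0.986 to 0.992). Kcnj13 stayed under 5 CPM and was not compared in this way. Each r rests on 7 points from 2 libraries and is given as a description. It follows the shape of a pattern and not the size of its differences.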

How the data were processed

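Single-cell RNA was measured in 2 libraries made with the 10x Chromium 3′ kit. The deposited values were UMI counts per gene and cell barcode, made by the authors with Cell Ranger and left without normalisation; the submitters' processing notes name Cell Ranger 3.0.2, STAR 2.5.1b, R 3.6.0, Seurat 3 and the build mm10. The sorted tubes gave the groups, 1 library each.

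From these counts, both libraries were brought together by canonical correlation anchors (Seurat 5.3.0, R 4.3.3) with 2000 features and 20 components and clustered at resolution 0.8, without channel genes or reporter rows among the features. Each library's part of a cluster of at least 20 cells was named by the marker list found in most cells (a marker counted as found in 50% of cells, with at least 3 found; a second list at 70% made it mixed). Non-traced cells of parts with 50% of the pericyte or smooth muscle list found were clustered again in scanpy at resolution 1.5 and named at 70% of a list, and arterial or venous parts had a marker share at least 1.5 times that of all endothelial-like cells. These naming rules were chosen with the data in view, and the members and lists were chosen with earlier results of these data known.

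Counts were summed per group and given as CPM with exact Poisson intervals, and ratios with exact conditional binomial intervals (scipy). No test was run, since each group was 1 library. The difference between the ependymal-like groups was log2(CPM + 1) for genes of at least 20 UMIs over both, with 2-fold as the limit, checked on simulated counts. Shares of cells were taken after thinning to 1000 UMIs, and 0 cells had fewer. Doublets were kept; Scrublet called 2170 of 25411 non-traced cells (8.54%, 20.3% expected) and 0 of 4825 traced cells (3.86% expected), so doublets of the traced library were not assessed. Named beside the 7 members were up to 4 genes per further list with the highest CPM in any named group, and the 3 genes most like each member in pattern, of which some are not reported here. Alternatives were other clusterings, stricter filters, other pseudocounts and thinning to 3000 UMIs or none.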

Additional observations from a re-analysis of the deposited data

How the results depend on the processing

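Of the levels in CPM, 49 of 49 kept within counting error without the Scrublet calls. With mitochondrial genes at most 10% of UMIs, 49 of 49 did too. Scrublet had called no pericyte-like, smooth muscle-like or traced ependymal-like cell, so the levels of these groups could not move without its calls. The mitochondrial limit likewise removed no pericyte-like or smooth muscle-like cell. In cells with no UMI of the other lineage's markers, 23 levels moved beyond counting error. The Abcc9 ratio of pericyte-like to smooth muscle-like cells was 66.9 at resolution 1.2 against 241, with Abcc9 at 21.1 CPM in the smooth muscle-like cells of that clustering, and the cause was not tested. The Kcnj2 ratio of arterial to venous endothelial-like cells was 5.13 in cells free of mural markers against 3.75. Genes at least 2-fold lower in traced ependymal-like cells numbered 997 with whole clusters named over both libraries, 131 at a pseudocount of 5 and 197 at a minimum of 100 UMIs, where fewer genes are tested, against 392. Genes at least 2-fold higher numbered 707 in cells with no endothelial marker UMI, where fewer cells remain, 267 at a pseudocount of 0.5 and 32 at a pseudocount of 5, against 146. At resolution 0.4 some groups were not separated and their values could not be had. No paired analysis was possible because each group was 1 library. The 62 smooth muscle-like cells limit Kcnj8, Kcnj11 and Abcc8 there to between 1 and 13 UMIs.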

Other observations

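Of 8 potassium and water transport genes, 7 reached 5 CPM in each ependymal-like group, 6 in pericyte-like, 5 in smooth muscle-like and 4, 5 and 4 in arterial, capillary and venous endothelial-like cells. Over all genes the share that reached 5 CPM was between 39.9% and 45.9% in these groups. Of the beta subunits of the sodium-potassium pump, Atp1b2 was at 737 CPM in pericyte-like and 571 CPM in smooth muscle-like cells, while Atp1b1 had 0 UMIs in pericyte-like and 594 CPM in smooth muscle-like cells.

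Of 9 receptor genes known to raise cAMP in vessel wall cells, 6 reached 5 CPM in smooth muscle-like and 4 in pericyte-like cells, 3 in each endothelial-like group, and 3 and 1 in non-traced and traced ependymal-like cells, against the same shares over all genes. Adora2a, of an adenosine receptor, stood at 141 CPM in pericyte-like and 29.3 CPM in smooth muscle-like cells. Ramp1, a partner of the CGRP receptor, was at 313 CPM in smooth muscle-like and 4.77 CPM in pericyte-like cells, and at 431 CPM in traced ependymal-like cells. The receptor gene Calcrl itself was highest in venous endothelial-like cells at 145 CPM and stood at 29.3 CPM in smooth muscle-like cells. All values describe single libraries without replicates.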
